A study of Mus musculus and Homo sapiens with 9 samples.

Results

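The genes described are 10 that carry iron into the cell, store it, release it or sense it, out of 56105 annotated genes in a human count table and 42462 in a mouse one. They are SLC40A1, TFRC, SLC11A2, FTH1, FTL, NCOA4, ACO1, IREB2, HMOX1 and SLC25A37, matched in the mouse table by the same symbols in mouse case, with FTL as Ftl1. The members were selected on their iron function with the log2 fold changes of these genes between knockdown or knockout and control already known, so those differences are given as a description and their p-values support nothing further. The RNA-seq libraries were of J.gamma1, a PLCγ1-deficient derivative of the Jurkat T cell acute lymphoblastic leukemia line, and of mouse T cells sorted magnetically from the spleen as CD3+ cells. The J.gamma1 cells carried a lentiviral hairpin in the pLKO.1 vector, either a control (shNC, 2 libraries) or one against IRF2BP2 (shIRF2BP2, 2 libraries), and the hairpin used for the sequenced cells is not named in the labels. The knockout mice (Irf2bp2 KO, 2 libraries) were Vav-iCre+/-;Irf2bp2fl/fl, in which a Cre recombinase under the Vav promoter deletes Irf2bp2 throughout the hematopoietic lineage and not in T cells alone. The controls (3 libraries) are labelled wild type and are called Vav-iCre-/-;Irf2bp2fl/fl in the study's methods, and the labels give no age.

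Iron enters most cells when transferrin receptor 1 takes up iron-loaded transferrin and the divalent metal transporter DMT1 moves the iron out of the endosome. The metal is then used in mitochondria, stored inside ferritin shells of heavy and light chains, or exported by ferroportin, the only known iron exporter of mammalian cells. When iron is scarce, the iron regulatory proteins IRP1 and IRP2 bind stem-loops called iron-responsive elements, which blocks translation when the element is in the 5′ UTR and slows the decay of the TFRC transcript, whose elements are in the 3′ UTR. T cells depend on transferrin receptor 1 when they proliferate, red cell precursors carry it and the mitochondrial importer mitoferrin 1 at very high levels, and the macrophages of the splenic red pulp, which recycle iron from old red cells, are rich in ferroportin and heme oxygenase 1.

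The elements are shown because they are the sequences through which iron is known to act on several of the members, ferritin and ferroportin from the 5′ UTR and TFRC from the 3′ UTR. They were found by searching the principal transcript of each member for a C, 5 bases, the loop CAGTGN with its last base not G, and 5 bases able to form at least 4 of 5 pairs with the bases before the loop, G-T pairs allowed. The loop is in capitals, each sequence runs 5′ to 3′ on the transcript's strand, and the human ones (hg38) come first.
FTH1, 5′ UTR, exon 1, chr11:61967575-61967601, minus strand: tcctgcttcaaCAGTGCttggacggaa
FTL, 5′ UTR, exon 1, chr19:48965336-48965362, plus strand: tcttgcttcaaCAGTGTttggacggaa
SLC40A1, 5′ UTR, exon 1, chr2:189580662-189580688, minus strand: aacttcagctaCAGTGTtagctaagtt
SLC11A2, 3′ UTR, exon 16, chr12:50988270-50988296, minus strand: gccatcagagcCAGTGTgtttctatgg
TFRC, 3′ UTR, exon 19, chr3:196050980-196051006, minus strand: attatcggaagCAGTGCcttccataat
TFRC, 3′ UTR, exon 19, chr3:196050576-196050602, minus strand: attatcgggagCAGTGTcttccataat
TFRC, 3′ UTR, exon 19, chr3:196050511-196050537, minus strand: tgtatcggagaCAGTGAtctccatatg
TFRC, 3′ UTR, exon 19, chr3:196050464-196050490, minus strand: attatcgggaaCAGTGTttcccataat
Fth1, mouse GRCm38, 5′ UTR, exon 1, chr19:9982733-9982759, plus strand: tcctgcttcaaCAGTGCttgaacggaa
Slc40a1, mouse GRCm38, 5′ UTR, exon 1, chr1:45925466-45925492, minus strand: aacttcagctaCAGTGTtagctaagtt
The search found 4 such stretches in the 3′ UTR of TFRC and 4 in that of mouse Tfrc, and 1 in the 5′ UTR of both ferritin chains and of ferroportin in each species. Of the principal transcripts of tested genes, 0.283% of 12738 human and 0.433% of 12688 mouse 5′ UTRs held a match, and 3.7% and 3.18% of 3′ UTRs. The SLC11A2 match formed 4 of the 5 pairs, as did 1 match each in the 3′ UTRs of ACO1 and IREB2, and the mouse Slc11a2 principal transcript held none. The counts are per gene, so the SLC11A2 isoforms with and without the element were not told apart. A match is a description of letters and no measure of protein binding.

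Total counts were 26648204 to 31120236 per J.gamma1 library and 16668577 to 37177523 per mouse library, with wild type replicate 3 the lowest. IRF2BP2, the targeted gene, stood at 204 and 199 CPM (counts relative to the library's total, scaled by TMM) in the shNC libraries and at 94 and 79 CPM in the shIRF2BP2 libraries, a log2 fold change of -1.22 (adjusted p = 0.0023, edgeR). Irf2bp2 had 4145, 4594 and 1915 counts in the wild type libraries and 0 in both knockout libraries, at least 1415-fold lower in CPM when a knockout library is set at 3 counts. The labels do not say whether replicates came from separate cultures or animals, so all p-values measure the spread between these libraries. T cell markers summed to 2485 to 2804 CPM in J.gamma1 and to 6487 to 9442 CPM in the mouse libraries, and red cell markers were also found in the mouse libraries, as described below.

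In J.gamma1 cells the exporter was lower and DMT1 higher after the knockdown, while ferritin, transferrin receptor 1 and the mitochondrial importer did not pass the test. A gene was called when its adjusted p was under 0.05 in edgeR's quasi-likelihood test (Benjamini-Hochberg, over 15819 genes) and it moved by 0.5 or more on the log2 scale. Of the 9 members tested, 1 was called lower, where 5.01% of all tested genes were, and 1 higher, where 5.46% were. HMOX1 was too low to test. The groups did not overlap for 5 of the 9 members, against 58.3% of all tested genes, and the members' median log2 fold change was 0.03 beside 0.0067 over all genes.

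SLC40A1 (ENSG00000138449, chr2:189560590-189583758 on the minus strand, hg38) encodes ferroportin. It had 87.8 and 78.0 CPM in the shNC libraries and 23.1 and 23.5 CPM in the shIRF2BP2 libraries, from 2273, 2421, 674 and 693 counts. Both knockdown libraries lay well under both controls and within 1 CPM of each other. The log2 fold change was -1.83 ± 0.13 (SE), a 3.55-fold lower level (adjusted p = 0.0007, edgeR), and it stayed between -1.91 and -1.75 in 14 alternative analyses, with adjusted p of 0.0084 or less.

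SLC11A2 (ENSG00000110911, chr12:50979401-51028566 on the minus strand, hg38) encodes DMT1. It had 58.7 and 48.9 CPM in the shNC libraries and 116 and 107 CPM in the shIRF2BP2 libraries, from 1520, 1517, 3391 and 3159 counts. The knockdown libraries were the higher ones, without overlap. The log2 fold change was 1.06 ± 0.13 (SE), a 2.08-fold higher level (adjusted p = 0.0037, edgeR), with 0.93 to 1.19 and adjusted p of at most 0.021 over the alternatives.

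TFRC, the transferrin receptor and the other uptake gene, had 729 and 618 CPM with shNC and 628 and 531 CPM with shIRF2BP2. The groups overlapped, and its log2 fold change was -0.22 ± 0.15 (SE, adjusted p = 0.39, edgeR). The largest rise and the largest fall among the members therefore concerned an endosomal importer and the exporter, and the difference between the changes of SLC11A2 and TFRC was not tested.

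**Figure D1:**
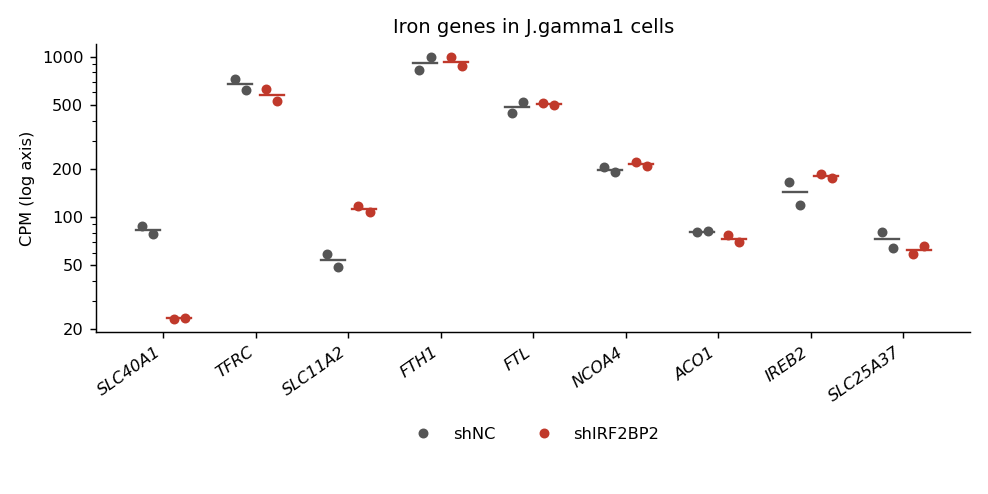
Normalised level of 9 iron genes in J.gamma1 cells, in CPM on a log axis; each point is a library (2 shNC in grey, 2 shIRF2BP2 in red) and each bar the mean of its group. SLC40A1 lies near 23 CPM in the knockdown libraries against 78.0 and 87.8 CPM in the controls, and SLC11A2 lies above 100 CPM against 48.9 and 58.7 CPM. HMOX1, at 0 counts, is left out.

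The ferritin chains overlapped between the groups. FTH1, the heavy chain with ferroxidase activity, had 832 and 997 CPM with shNC and 992 and 877 CPM with shIRF2BP2 (log2 fold change 0.03 ± 0.15 SE, adjusted p = 0.92, edgeR). FTL, the light chain, had 447 and 526 CPM with shNC and 514 and 499 CPM with shIRF2BP2 (0.06 ± 0.14 SE, adjusted p = 0.82). For both chains the knockdown values lay between the 2 controls, and the sign of FTH1 turned with upper-quartile scaling, to -0.03. Reads of processed pseudogenes, which share most of the ferritin sequence, could be split between copies, but the 25 FTH1 pseudogenes held 0.181% to 0.328% of the reads of FTH1 in each library and the 16 FTL pseudogenes at most 0.0778% of those of FTL.

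By length-scaled level (TPM, computed from the counts and the length of the principal transcript), the heavy to light chain ratio was 1.35 and 1.37 with shNC and 1.40 and 1.27 with shIRF2BP2 (two-sided exact permutation test, p = 1.0, where 0.33 is the smallest p that 2 against 2 libraries allow). The ratio of TFRC to FTH1 on the same scale was 0.21 and 0.149 with shNC and 0.152 and 0.145 with shIRF2BP2 (log2 difference -0.25, exact p = 0.67). Knockdown replicate 2 had the lowest value of each ratio, and the groups overlapped for both.

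NCOA4, the receptor that delivers ferritin to the lysosome so that its iron is freed, had 204 and 190 CPM with shNC and 221 and 208 CPM with shIRF2BP2 (log2 fold change 0.12 ± 0.12 SE, adjusted p = 0.56, edgeR). ACO1, which encodes IRP1, had 80.3 and 81.3 CPM with shNC and 76.9 and 70.0 CPM with shIRF2BP2 (-0.14 ± 0.12 SE, adjusted p = 0.48). Neither gene overlapped between the groups, as for 58.3% of all genes tested.

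IREB2, which encodes IRP2, had 167 and 120 CPM with shNC and 185 and 175 CPM with shIRF2BP2. The shNC libraries differed more from each other than the knockdown libraries did, and the log2 fold change was 0.33 ± 0.17 (SE, adjusted p = 0.24, edgeR). Without shNC replicate 1, the higher of the controls, it was 0.58 with an adjusted p of 0.0065, so that this library decides its call. SLC25A37, mitoferrin 1, which carries iron into mitochondria, had 81.1 and 64.0 CPM with shNC and 58.7 and 65.6 CPM with shIRF2BP2, with overlap (-0.22 ± 0.15 SE, adjusted p = 0.37).

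HMOX1, heme oxygenase 1, which frees iron from heme, had 0 counts in all 4 J.gamma1 libraries, which allows at most 0.0967 to 0.116 CPM in a library (3 counts, for counting error only).

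By length-scaled level in the shNC libraries, the order ran from FTH1 at 1713 ± 208 (SD, n = 2) and FTL at 1258 ± 136 to TFRC at 303 ± 37.1 and NCOA4 at 128 ± 7.35 TPM, with no overlap between neighbours. SLC40A1 at 56.2 ± 5.03 and IREB2 at 51.1 ± 12.2 TPM overlapped, as did SLC25A37 at 35.1 ± 6.06 and SLC11A2 at 29.4 ± 3.97. ACO1 was lowest of those detected, at 24.5 ± 0.06. With shIRF2BP2, the length-scaled level of SLC40A1 was 16.5 ± 0.44 and that of SLC11A2 63.7 ± 2.73 TPM, so that ferroportin moved from the fifth place to under ACO1, at 23.2 ± 1.18.

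Mouse splenic CD3+ T cells gave another pattern. Transferrin receptor 1 and mitoferrin 1 were higher in the knockout, and ferroportin, DMT1 and ferritin did not pass the test. Here a call required an adjusted p under 0.05 over 15350 genes and a move of 1 or more on the log2 scale. Of the 10 members, all tested, 2 were called higher, where 2.47% of all tested genes were, and 0 lower, where 0.111% were. No member was lower at an unadjusted p under 0.05 (0 of 10), and DESeq2 also called 0 lower. The groups did not overlap for 4 of the 10, against 36.0% of all tested genes, and the members' median log2 fold change was 0.13 beside -0.02 over all genes. In such bulk libraries fewer cells of a type and less RNA per cell cannot be told apart.

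Tfrc (ENSMUSG00000022797, chr16:32608920-32632794 on the plus strand, GRCm38) had 75.6, 72.0 and 83.7 CPM in the wild type libraries and 277 and 323 CPM in the knockout libraries, from 2802, 2602, 1337, 10602 and 11457 counts. The controls lay close together and both knockout libraries were over 3 times as high. The log2 fold change was 1.96 ± 0.14 (SE), a 3.89-fold higher level (adjusted p = 0.0045, edgeR). It was 1.82 to 2.04 over 15 alternatives, but the adjusted p was 0.056 without wild type replicate 1 (log2 fold change 1.95) and without knockout replicate 2 (1.82), which ends the call.

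Slc25a37 (ENSMUSG00000034248, chr14:69241848-69285112 on the minus strand, GRCm38) had 82.8, 102 and 95.6 CPM in the wild type libraries and 229 and 252 CPM in the knockout libraries, from 3067, 3700, 1528, 8766 and 8948 counts. Again the groups were well apart. The log2 fold change was 1.36 ± 0.14 (SE), a 2.57-fold higher level (adjusted p = 0.01, edgeR). The call was lost without wild type replicate 1, knockout replicate 1 or knockout replicate 2 (adjusted p of 0.063, 0.065 and 0.1), with log2 fold changes of 1.27 to 1.45 over the alternatives.

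**Figure D2:**
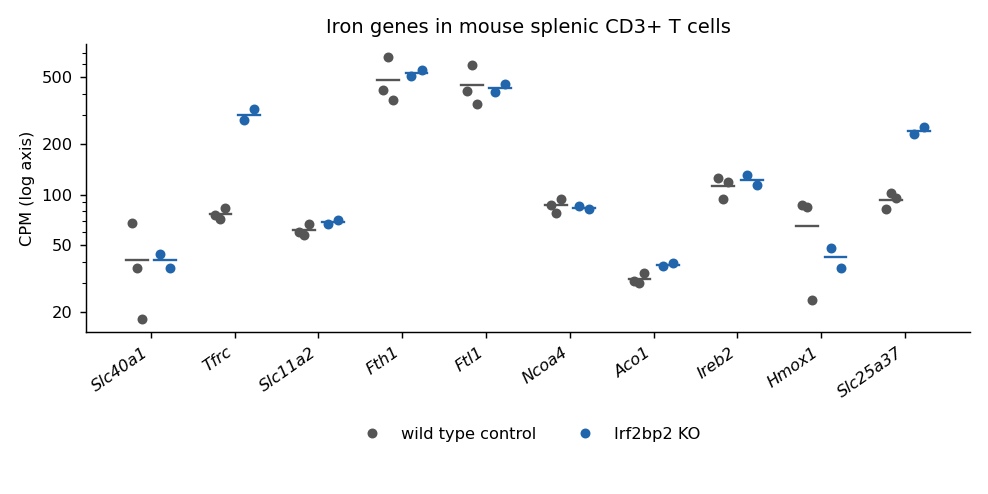
Normalised level of the 10 iron genes in mouse splenic CD3+ T cells, in CPM on a log axis; each point is a library (3 wild type in grey, 2 Irf2bp2 KO in blue) and each bar the mean of its group. Tfrc lies at 277 and 323 CPM in the knockout against 72.0 to 83.7 CPM, and the wild type points of Slc40a1 and Hmox1 spread over more than 3-fold.

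Markers of red cell precursors moved the same way as these 2 genes. All 15 red cell markers in the table had positive log2 fold changes, with a median of 2.76 beside -0.02 over all genes, and none was at 0 throughout. Of the 15, 7 were called higher, beside 2.47% of all tested genes. Their summed level was 2291, 1326 and 614 CPM in the wild type libraries and 4750 and 6633 CPM in the knockout libraries, and without the globins, 122, 175 and 57.0 against 1059 and 1316 CPM. Slc4a1, the anion exchanger of the red cell membrane, rose by 3.68 (adjusted p = 0.018, edgeR) and Klf1, a red cell transcription factor, by 2.79 on the log2 scale (adjusted p = 0.029). T cell markers summed to 8451, 9442 and 8725 CPM in the wild type libraries and to 6487 and 6822 CPM in the knockout.

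Among the controls, the red cell sum without globins varied 3.08-fold, whereas Tfrc varied 1.16-fold and Slc25a37 1.24-fold. A list of 10 cycling cell genes, added after the data were seen, summed to 216, 290 and 135 CPM in the wild type libraries and to 974 and 1060 CPM in the knockout. It varied 2.16-fold among the controls, and 5 of its genes were called higher, beside 2.47% of all tested genes. Red cell markers and cycling genes thus both separated the same libraries as Tfrc and Slc25a37 did, and their part in the result was not tested.

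**Figure D3:**
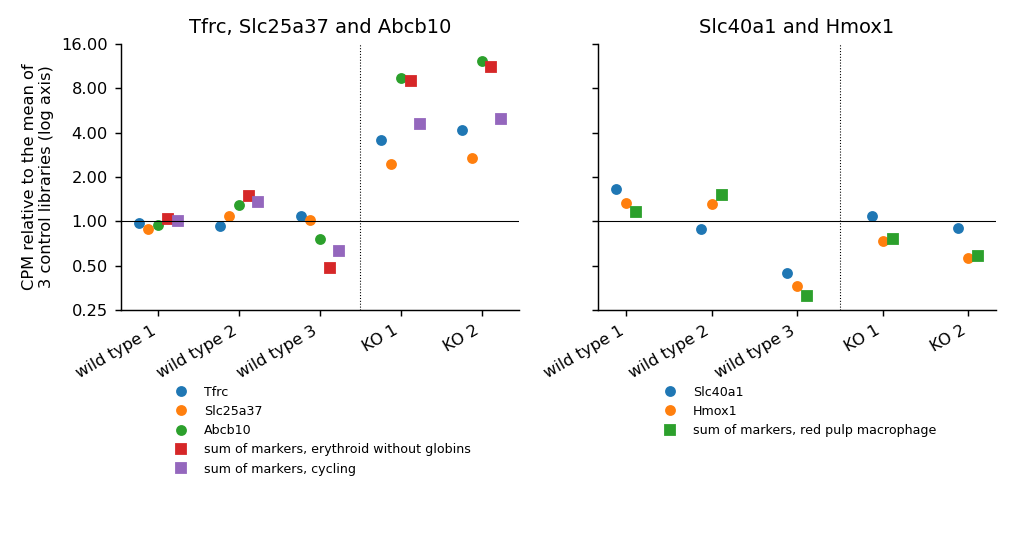
CPM of iron genes (circles) and summed CPM of marker lists (squares) in each mouse library, divided by the mean of the 3 wild type libraries, on a log axis. On the left, Tfrc reaches 3.59 and 4.19 times the control mean in the knockout, beside 8.96 and 11.1 times for red cell markers without globins and 4.56 and 4.97 times for cycling genes; on the right, Hmox1 and the red pulp macrophage markers are lowest in wild type replicate 3, at 0.363 and 0.311 times.

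Slc40a1, the exporter, had 68.3, 36.7 and 18.3 CPM in the wild type libraries and 44.5 and 36.9 CPM in the knockout. Both knockout values lay inside the control range, which spanned 3.74-fold, and the log2 fold change was -0.02 ± 0.48 (SE, adjusted p = 0.99, edgeR). Its sign turned without wild type replicate 1, to 0.56 (adjusted p = 0.62). This change and the one in J.gamma1 were measured in separate tables, and their difference was not tested.

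Hmox1 had 86.5, 84.7 and 23.6 CPM in the wild type libraries and 48.1 and 36.9 CPM in the knockout. The knockout values again lay inside the control range, with wild type replicate 3 under them, and the log2 fold change was -0.62 ± 0.51 (SE, adjusted p = 0.64, edgeR). Without wild type replicate 3 it was -1.01 with an adjusted p of 0.04, a call that rests on leaving out that library.

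The 12 red pulp macrophage markers, all detected, summed to 318, 415 and 84.8 CPM in the wild type libraries and to 207 and 159 CPM in the knockout. They varied 4.89-fold among the controls. All 12 had negative log2 fold changes, with a median of -0.62, and 0 were called, beside 2.47% higher and 0.111% lower of all tested genes. Wild type replicate 3 had the lowest Slc40a1, the lowest Hmox1 and the lowest macrophage sum of the 5 libraries. The highest macrophage sum was in wild type replicate 2, but the highest Slc40a1 and Hmox1 were in wild type replicate 1. Among the controls, Slc40a1 fell in the order of the red cell sum with globins, 2291, 1326 and 614 CPM. That sum was 4750 and 6633 CPM in the knockout, where Slc40a1 stayed inside the control range. The part of macrophages or red cells in either gene was not tested. In J.gamma1, a cell line, 4 of 7 macrophage markers were at 0 and the rest summed to 0.386 to 1.68 CPM.

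Slc11a2 had 59.7, 58.0 and 66.6 CPM in the wild type libraries and 67.2 and 70.7 CPM in the knockout. The groups did not overlap, by under 1 CPM, and the log2 fold change was 0.17 ± 0.12 (SE, adjusted p = 0.58, edgeR). The member that rose with the knockdown in J.gamma1 thus stayed under the threshold in mouse cells, and Tfrc, which rose in mouse cells, had a value of -0.22 in J.gamma1. These are values from separate tables, in different species and in a leukemia line against sorted primary cells, with a partial knockdown against a deletion.

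Fth1 had 422, 660 and 368 CPM in the wild type libraries and 508 and 555 CPM in the knockout (log2 fold change 0.14 ± 0.25 SE, adjusted p = 0.85, edgeR). Ftl1 had 416, 595 and 349 CPM in the wild type libraries and 410 and 456 CPM in the knockout (-0.07 ± 0.23 SE, adjusted p = 0.93). Both chains were highest in wild type replicate 2 and lowest in wild type replicate 3, so that they moved together among the controls. Of the reads of Ftl1, 3 pseudogenes held 1.57% to 1.96%.

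The heavy to light chain ratio by length-scaled level was 1.06, 1.16 and 1.10 in the wild type libraries and 1.29 and 1.27 in the knockout. The 2 knockout values were the highest, and the two-sided exact permutation test gave p = 0.1, the smallest that 2 against 3 libraries allow. The ratio of Tfrc to Fth1 on that scale was 0.034, 0.0207 and 0.0432 in the wild type libraries and 0.103 and 0.111 in the knockout, a log2 difference of 1.78 (exact p = 0.1). Receptor transcript per ferritin transcript was thus higher in both knockout libraries than in any control, in the direction that the values of Tfrc alone set.

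Ncoa4 had 86.5, 78.1 and 95.0 CPM in the wild type libraries and 86.0 and 81.8 CPM in the knockout (log2 fold change -0.04 ± 0.13 SE, adjusted p = 0.92, edgeR). Ireb2 had 126, 94.2 and 118 CPM in the wild type libraries and 131 and 114 CPM in the knockout (0.12 ± 0.16 SE, adjusted p = 0.79). Both overlapped between the groups. Aco1 had 30.7, 29.7 and 34.3 CPM in the wild type libraries and 37.8 and 39.0 CPM in the knockout, apart but not past the test (0.29 ± 0.14 SE, adjusted p = 0.37).

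The order of length-scaled levels in the wild type libraries was led by Fth1 at 937 ± 247 (SD, n = 3) and Ftl1 at 844 ± 187 TPM, which overlapped. Hmox1 at 73.9 ± 39.0, Ncoa4 at 47.3 ± 7.42, Slc25a37 at 40.8 ± 4.30, Slc11a2 at 37.1 ± 4.94 and Ireb2 at 35.7 ± 6.66 followed, each overlapping the next. Tfrc at 28.8 ± 3.95, Slc40a1 at 22.0 ± 13.4 and Aco1 at 15.0 ± 2.05 came last. In the knockout Tfrc reached 122 ± 12.6 and Slc25a37 115 ± 7.26 TPM, over Hmox1 at 54.1 ± 10.4. In J.gamma1 TFRC, at 303, already held the third place with the control hairpin.

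**Figure D4:**
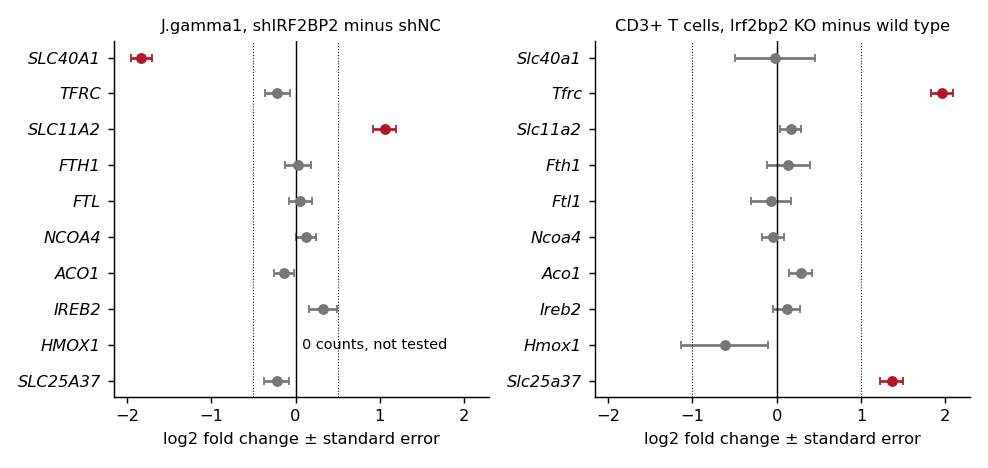
Log2 fold change with its standard error (bars) for the 10 iron genes, knockdown minus shNC in J.gamma1 on the left and knockout minus wild type in mouse CD3+ T cells on the right; red points passed both thresholds and dotted lines mark the fold threshold of each table. SLC40A1 at -1.83 and SLC11A2 at 1.06 stand out in J.gamma1, and Tfrc at 1.96 and Slc25a37 at 1.36 in mouse cells, with bars of about 0.5 for mouse Slc40a1 and Hmox1.

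A wider list of 46 genes of iron and heme handling and iron-sulfur cluster assembly was compared in the same way. In J.gamma1, of 41 tested, 2 were called lower and 0 higher, beside 5.01% and 5.46% of all tested genes, and the median log2 fold change was -0.08 beside 0.0067 over all genes. At an unadjusted p under 0.05, edgeR gave 1 higher (HMOX2), and DESeq2 called 0 higher. ABCB10, a transporter of the inner mitochondrial membrane that binds mitoferrin 1, fell from 504 and 451 to 270 and 250 CPM (log2 fold change -0.88 ± 0.13 SE, adjusted p = 0.0066). ABCG2, a pump that can export heme and porphyrins, fell from 6.60 and 8.54 to 3.13 and 2.95 CPM (-1.32 ± 0.26 SE, adjusted p = 0.019). The call of ABCG2 was lost without shIRF2BP2 replicate 2, where its adjusted p was 0.05.

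In mouse cells, 42 of the 46 were tested, 4 were called higher and 0 lower, beside 2.47% and 0.111% of all tested genes, with a median of -0.08 beside -0.02 over all genes. At an unadjusted p under 0.05, 8 were higher and 1 (Hmox2) lower, and DESeq2 called 5 higher, Tfr2 in addition, and 0 lower. No share over all tested genes was taken for these counts. Abcb10 had 8.83, 12.1 and 7.13 CPM in the wild type libraries and 87.9 and 114 CPM in the knockout, a 10.7-fold higher level (log2 fold change 3.42 ± 0.24 SE, adjusted p = 0.0045, edgeR). Steap3, the reductase that turns endosomal ferric iron into the form DMT1 carries, had 4.72, 10.9 and 4.32 CPM in the wild type libraries and 33.1 and 38.2 CPM in the knockout (2.41 ± 0.40 SE, adjusted p = 0.034). ABCB10 and Abcb10 were thus called in opposite directions in the 2 tables.

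Blvrb, a biliverdin reductase of heme breakdown, had 13.4, 20.8 and 7.88 CPM in the wild type libraries and 61.1 and 72.4 CPM in the knockout (2.24 ± 0.36 SE, adjusted p = 0.029, edgeR). Slc39a8, the metal importer ZIP8, had 4.21, 6.09 and 4.25 CPM in the wild type libraries and 13.9 and 15.3 CPM in the knockout (1.59 ± 0.25 SE, adjusted p = 0.029). Tfr2, the second transferrin receptor, named after its values were seen, went from 3.43, 7.496 and 2.503 to 20.2 and 21.6 CPM without passing the test (2.204, adjusted p = 0.057). The number called higher was 0 without wild type replicate 1, 2 without wild type replicate 3 (Abcb10 and Blvrb), and 1 (Abcb10) without either knockout library.

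Abcb10, Steap3, Blvrb and Tfr2 are all known for high levels in red cell precursors, and the red cell markers given above were higher in the same 2 libraries. The part of those cells in these values was not tested. Of the 19 iron-sulfur cluster genes, 0 were called in either table. Among all tested genes, 5.46% were called higher and 5.01% lower in J.gamma1, and 2.47% and 0.111% in mouse cells. The 19 had log2 fold changes of -0.29 to 0.20 in J.gamma1 and -0.38 to 0.71 in mouse cells.

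**Figure D5:**
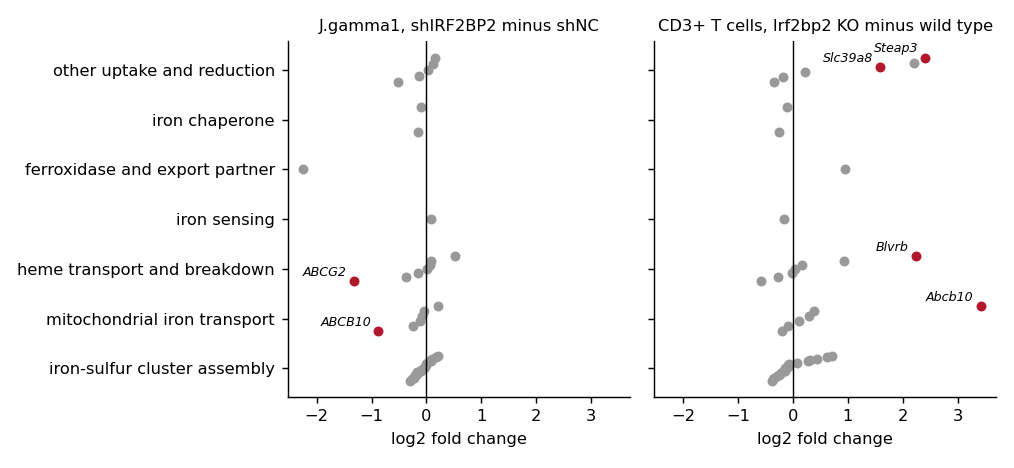
Log2 fold change of each tested gene of the wider iron list by role, with 41 genes in J.gamma1 on the left and 42 in mouse CD3+ T cells on the right; red points were called and are named. ABCB10 and ABCG2 lie on the lower side in J.gamma1, and Abcb10, Steap3, Blvrb and Slc39a8 on the higher side in mouse cells, while the iron-sulfur cluster genes stay between -0.38 and 0.71.

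A list of 5 other genes known for iron-responsive elements was tested in mouse cells. Of the 5, 0 were called, beside 2.47% higher and 0.111% lower of all tested genes. Their log2 fold changes were positive for 3 and negative for 2, with a median of 0.05 beside -0.02 over all genes. Epas1 had 12.1, 12.8 and 16.1 CPM in the wild type libraries and 7.52 and 6.06 CPM in the knockout. Mouse Alas2, also of this list, encodes the red cell enzyme that starts heme synthesis and is 1 of the red cell markers. It had 23.9, 12.8 and 5.01 CPM in the wild type libraries and 65.6 and 91.7 CPM in the knockout (2.48 ± 0.54 SE, adjusted p = 0.072, edgeR). The groups did not overlap, edgeR did not call it and DESeq2 called it higher. DESeq2 called 2 of the 5 higher and 0 lower, and at an unadjusted p under 0.05 edgeR gave 2 higher and 1 lower. Cdc42bpa, which is not on the red cell list, went from 1.73, 3.18 and 2.57 to 7.91 and 7.58 CPM, without overlap. Alas2, Cdc42bpa and Epas1 are named after their values were seen. ALAS2 was at 0 in all J.gamma1 libraries. The 4 other genes of the list were tested there and 0 were called, beside 5.46% higher and 5.01% lower of all tested genes.

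Ferritin, ferroportin and HMOX1 genes are also known targets of the repressor BACH1 and the activator NRF2. Of 11 genes of that pathway, 10 were tested in each table. In J.gamma1 the log2 fold changes were positive for 6 and negative for 4, with a median of 0.15 beside 0.0067 over all genes. There 1 was called lower, beside 5.01% of all tested genes. It was TXNRD1, a thioredoxin reductase, with 455 and 370 CPM in shNC and 242 and 201 CPM in shIRF2BP2 libraries (-0.90 ± 0.16 SE, adjusted p = 0.012, edgeR). The call was lost without shIRF2BP2 replicate 2 (adjusted p = 0.053), and DESeq2 called 2 lower, GCLM in addition. In mouse cells the log2 fold changes were positive for 8 of the 10, with a median of 0.37 beside -0.02 over all genes. At an unadjusted p under 0.05 in edgeR, 5 were higher and 0 lower, with no share over all tested genes taken at that level. Of these, 1 was called higher, beside 2.47% of all tested genes. It was Gclm, a subunit of the first enzyme of glutathione synthesis, with 31.0, 35.6 and 29.1 CPM in the wild type libraries and 83.3 and 85.1 CPM in the knockout (1.40 ± 0.13 SE, adjusted p = 0.0089). Its adjusted p was 0.063, 0.065 and 0.1 without wild type replicate 1, knockout replicate 1 and knockout replicate 2, which ends the call.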

How the data were processed

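RNA was sequenced from 4 J.gamma1 and 5 mouse libraries. The authors aligned reads with HISAT2 2.2.0 (hg38 and, per the submitters' processing notes, mm10) and ran StringTie. The values they deposited are whole-number counts for each Ensembl gene, not normalized. How coverage became counts, and whether strand was used, is not given in the sources used here. Groups came from the labels.

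Rows were kept where GENCODE 44 or M21 names the gene (98.0% and 99.8% of counts). In each table, low genes were dropped by filterByExpr, library sizes were set by TMM, and edgeR 4.0.16 in R 4.3.3 tested the condition by quasi-likelihood, with Benjamini-Hochberg adjustment. Replicates differed by more than sampling noise (chi-square per gene of at least 20). Length-scaled levels divide counts by the principal transcript's length, and scale each library to the same total (TPM). Ratios were compared by exact permutation over libraries. Shares over all tested genes were taken for edgeR calls and for overlap, not for counts at an unadjusted p or DESeq2 calls. All 10 members are named, and of the other lists up to 4 called genes in each direction by size. The members and lists were chosen with earlier results of these data known. Elements were searched in GENCODE transcripts with Python 3.11.15.

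Same-numbered libraries correlated at 0.23 in J.gamma1 and at 0.15 and -0.16 in mouse cells, and the labels do not say that a number is shared, so no pairs were assumed. Alternatives were DESeq2 1.42.0, other scalings, filters, fold thresholds and row sets, counts divided by 2, ferritin summed with its pseudogenes, the replicate number as a block and each library left out. In simulated tables where 200 genes were changed, edgeR found 162 in the J.gamma1 design (28 false calls) and 110 in the mouse design (5 false calls). For DESeq2 these were 161 (25) and 135 (39). Some items of the lists are not reported here.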

Additional observations from a re-analysis of the deposited data

How the results depend on the processing

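The 4 member calls kept their direction under every alternative run, and SLC40A1 and SLC11A2 kept their calls. In J.gamma1, 1 to 2 members were called higher with a library left out. Of the wider list, 0 to 1 were then called higher and 1 to 3 lower, with a median log2 fold change of -0.128 to -0.0342. Upper-quartile scaling put that median at -0.14, and a fold threshold of 1 left 1 gene called lower. In mouse cells, leaving out a library gave 0 to 2 members called higher and 0 to 1 lower, and of the wider list 0 to 5 called higher, with a median of -0.0935 to 0.025. Where 1 library was left in a group, the fit assumes that it varies like the others. In the mouse, Tfrc and Slc25a37 lost their calls without wild type replicate 1 too, where 2 libraries remained in each group. Their log2 fold changes there were 1.95 and 1.29, against 1.96 and 1.36 with all libraries.

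With the replicate number as a block, which pairs libraries that share only a number, 1 gene of the wider list was called higher in J.gamma1 (HMOX2) and 1 mouse member lower (Hmox1, -1.02, adjusted p = 0.031), and Ncoa4 stood at 0.0291. Signs turned for members that were never called: FTH1 to -0.0254 with upper-quartile scaling and -6.55e-05 with a filter of at least 1 count, and Slc40a1 to 0.0242 and Ncoa4 to 0.00198 with at least 10 counts in every library. With a library left out, log2 fold changes ran from -0.10 to 0.17 for FTH1, -0.058 to 0.18 for FTL, -0.37 to 0.56 for Slc40a1, -0.0343 to 0.44 for Fth1, -0.23 to 0.19 for Ftl1, -0.10 to 0.0226 for Ncoa4 and -0.00192 to 0.21 for Ireb2. The cause was not tested. Wild type replicate 3 had the fewest counts, 16668577, and HMOX1 was not detectable in J.gamma1 at this depth.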

Other observations

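Other genes followed the same course as the most changed members. Over the 4 J.gamma1 libraries, among 9754 genes with a mean of at least 10 CPM, those nearest to SLC40A1 by root mean square difference of centred log2 CPM (with 0.5 added) were ATP6V1C1 at 0.0441, TSHR at 0.0665, MRPS35 at 0.0674, NXT2 at 0.0755 and RAG2 at 0.08. Over the 5 mouse libraries, among 9099 genes, those nearest to Tfrc were Cit at 0.108, Atp2b4 at 0.123, Xk at 0.134, Brca1 at 0.143 and Tmem181b-ps at 0.148. With so few libraries, the likeness mostly says that these genes differed between the groups by a similar amount.

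In the mouse libraries the red cell and cycling sums were higher and the T cell sum lower in the knockout, without overlap, as given above. The sums of the other cell marker lists overlapped between the groups, although most genes within each list moved in the same direction. All 12 red pulp macrophage markers (median log2 fold change -0.62) and all 6 B cell markers (-1.15) were lower. Higher values were found for 2 of 9 monocyte and neutrophil markers (-0.77), all 7 plasma cell markers (0.69) and 5 of 6 megakaryocyte and platelet markers (0.33). The median over all genes was -0.02. Monocyte and neutrophil markers summed to 91.0, 344 and 19.8 CPM in the wild type libraries and to 108 and 55.8 CPM in the knockout, and B cell markers to 143, 245 and 33.5 against 99.2 and 34.9 CPM. Plasma cell markers summed to 1178, 432 and 552 against 1536 and 1166 CPM, and 1 of the 7 was called higher, beside 2.47% of all tested genes. Megakaryocyte and platelet markers summed to 7.40, 15.9 and 7.45 against 15.2 and 11.01 CPM. In J.gamma1, red cell markers summed to 8.19 to 14.7 CPM, with 1 of 4 tested called higher. B cell markers summed to 50.2 and 64.9 CPM with shNC and to 15.6 and 18.0 CPM with shIRF2BP2, with 1 of 2 tested called lower. Of 13 T cell markers tested there, 3 were called higher and 1 lower. Among all tested genes, 5.46% were called higher and 5.01% lower. The cycling genes summed in J.gamma1 to 3777 and 3530 CPM with shNC and to 3284 and 3314 CPM with shIRF2BP2, with 1 of 10 called lower.

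The 3′ UTRs of the 9 tested J.gamma1 members held neither GGTCTAA, found in 5.02% of 12738 human 3′ UTRs, nor AGGTCTA, found in 5.61%. The coding sequence of SLC40A1 holds GGTCTA, as do 13.9% of coding sequences. Only the transcript's strand was searched, both words share the letters GGTCTA, and their choice followed earlier results of these data. No role of these words in any value was tested.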
